A study of Xenopus laevis with 2 samples.

Results

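The transcripts described here are those with the highest signal in 1 microarray of frog embryo tissue. The array was hybridised with RNA from posterior poles of wildtype Xenopus laevis embryos, dissected on the dorsal side at stage 18, a neurula stage, and described by the submitters as mostly mesoderm. The labels do not say how many embryos were pooled, or whether the wildtype embryos received an injection, and the genotype is entered as NA. Members were chosen by their signal: of 9304 probe sets that the platform annotation ties to exactly 1 gene symbol, the 300 with the highest deposited signal were taken. They name 260 genes of 7531. A probe set is a group of short probes that together read 1 transcript, and its signal is a brightness without a unit, made by the MAS5 method. The series holds 2 arrays. The other one, of embryos depleted of Derriere, a secreted signal of the TGF-beta family, was not used here. With 1 array and no replicate, every value below is a description of this hybridisation, with no test and no error between embryos.

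A neurula is closing its neural tube while the mesoderm beside the notochord is cut into somites, the blocks that form skeletal muscle. New segments are laid down from the posterior end, where unsegmented paraxial mesoderm and tail bud progenitors lie. A dorsal posterior piece of this stage can also carry neural plate and the epidermis that covers it. Cells of early embryos divide and grow on yolk, and genes for making protein and RNA are commonly among the most highly expressed in them.

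The signal of a probe set depends on its probe sequences as well as on its transcript, and it is not scaled by transcript length, so the order of the members is an order of brightness and not of molecule number. This could be measured within genes. Of the 260 member genes, 92 had more than 1 probe set, and in the median gene the highest read 5.95 times the lowest, against 3.51 times in the 1293 genes of the array with more than 1 probe set. Because members were taken for their brightness, a larger ratio among them is partly fixed by the choice. The pooled SD between probe sets of 1 member gene was 2.32 on the log2 scale. In 17 genes every probe set was a member, in 75 at least 1 was not, and in 15 at least 1 lay under the array's median of 107.4. The ribosomal protein gene rpl34.L read 3468.9 with one probe set and 3.2 with the other, a 1084-fold difference that was the widest of the 92. The creatine synthesis gene gatm.L read 6167.9 and 14.5. The translation factor gene eif5a.L had 5 probe sets, of which 3 were members, and they ran up to 10569.3 and down to 349.1. At the narrow end, 21 genes had probe sets within 2-fold of each other. Further down, many genes are named by their member probe sets alone, and many markers by their brightest probe set. A dimmer probe set of the gene is not always given. The lowest read 16.6 for myl12b.L, 40.6 for ddx39a.L, 42.5 for cnn3.L, 121.9 for zbtb33.S and 362.9 for cirbp.L.

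The signals fell off smoothly from the top. The member signals ran from 2497.8 to 20079.9, an 8.04-fold span, with a median of 3871.9 and quartiles of 3072.9 and 5556.05. The median of all 9304 probe sets was 107.4, so the lowest member stood 23.3-fold above it. The 300 members made up 3.22% of these probe sets and held 35.7% of their summed signal. No single probe set dominated this summed signal. The highest held 0.508% of the summed signal, the 10 highest 3.13% and the 100 highest 18.4%, and 597 probe sets were needed to reach 50%. Only 7 members read 10000 or more, 97 read 5000 or more and 233 read 3000 or more. Over the members, the log10 signal dropped by 0.413 for each 10-fold step in rank.

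No gap separated the members from the rest. The last 3 inside were selenof.L at 2511.9, znf238.2.L at 2503.8 and rsl24d1.S at 2497.8, and the next 3 outside were anp32e.L at 2487.1, nop53.L at 2483.4 and nop10.S at 2476.7. A further 117 probe sets read between 2000 and the lowest member.

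**Figure D1:**
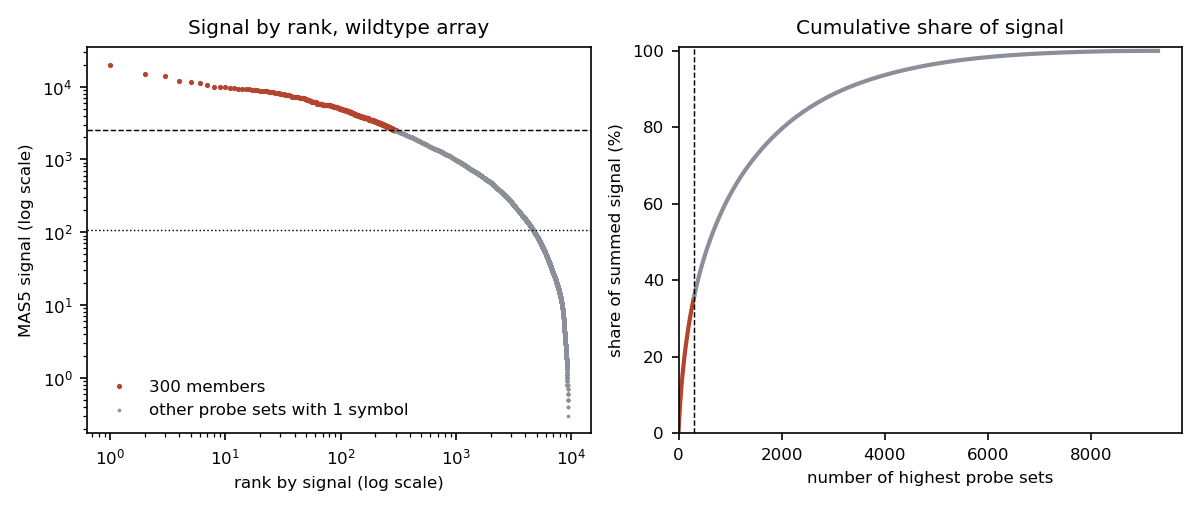
Left, MAS5 signal (log scale) of each of the 9304 probe sets with 1 gene symbol against its rank (log scale), with the 300 members in red, the lowest member as a dashed line and the median of 107.4 as a dotted line. Right, the share of summed signal held by the highest probe sets, which reached 35.7% at 300 (dashed line) and 50% at 597.

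The 20 highest probe sets came mostly from genes of chromatin, ribosomal proteins, RNA-binding proteins and translation factors. The highest of all was h2az1.L, which encodes the histone variant H2A.Z of promoter nucleosomes, at 20079.9. It was followed by the splicing factor gene srsf2.L at 14999.2, the embryonic epidermal keratin gene krt70.S at 13889.6, the constitutive chaperone gene hspa8.L at 12073.2 and the elongation factor gene eef1a1.S at 11598.8, which encodes the protein that brings charged tRNA to the ribosome. Of the 20, chromatin genes supplied 6, ribosomal protein genes 4, RNA-binding protein genes 3 and translation factor genes 3. The 4 others were krt70.S, hspa8.L, the adenine nucleotide carrier gene slc25a5.L at 9006.4 and tmem126a.L at 9838.5. The name tmem126a.L is uncertain: the gene had 2 other probe sets at 484.2 and 48, and the annotation gives a further probe set to this gene and a nucleosome-binding gene together.

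Genes for making RNA and protein were the largest part of the members. Each member was put into a functional class by its symbol: 233 by fixed symbol patterns, 60 by hand from the gene name, and 7 were left unplaced. RNA-binding and splicing proteins had 60 members, cytoplasmic ribosomal proteins 47, translation factors 30 and ribosome assembly factors 7, together 144 of the 300. Histones and chromatin proteins had 32. By patterns alone, which can be applied to the whole array, ribosomal proteins made up 15.7% of the members and 1.02% of the 9304 probe sets. The corresponding shares were 15% and 3.14% for RNA-binding and splicing proteins, 10% and 1.14% for chromatin proteins, and 9.67% and 1.09% for translation factors. The patterns take whole symbols and are approximate, so a class can hold a few genes of another role.

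**Figure D2:**
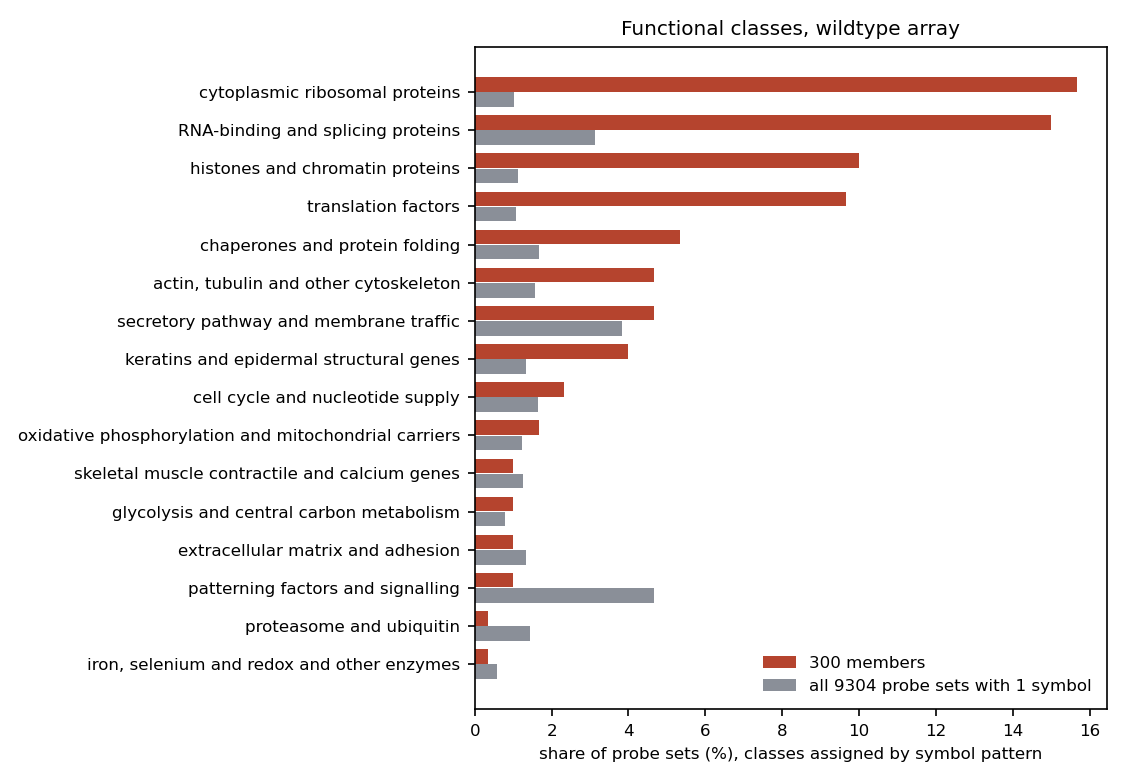
Share of the 300 members (red) and of all 9304 probe sets with 1 symbol (grey) in each functional class, with classes assigned by symbol pattern alone. Ribosomal, RNA-binding, chromatin and translation genes stand out among the members. The proteasome and ubiquitin class has a smaller share of the members than of the array. The patterning class is drawn smaller too, but 12 of its 15 members were placed by hand and are not drawn. Its smaller share cannot be told apart from genes that the pattern missed.

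Ribosomal protein genes held 18.0% of the member signal with 47 probe sets of 41 genes. Of the 95 ribosomal protein probe sets on the array, 49.5% were members, and their array-wide median was 2410.8. Both subunits were represented. The large subunit had 24 members from 22 of 40 gene names, with signals from 2866.4 to 9811, and the small subunit 22 members from 15 of 23 gene names, with signals from 2577.1 to 9318.8. The remaining member was the paralog gene rpl22l1.L at 2699.5. The highest of the large subunit were rpl10a.S at 9811, rpl35a.S at 9208.3 and rpl35.L at 8690.9. The highest of the small subunit were rps19.S at 9318.8, rps12.L at 9075 and rps2.L at 8446.5. Ribosomes need most of these proteins in equal number, but the signals did not mirror that: other probe sets of the 2 subunits went down to 26.1 for the small and 3.2 for the large. The same gene could stand at both ends, as rpl35.L did with 8690.9 and 55.7. Ribosomal proteins were also under-counted by the choice of 1 symbol, because 11 more probe sets at or above the lowest member were assigned to 2 or more symbols, the first of them a ribosomal protein.

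Translation factors gave 30 members of 23 genes. Elongation factors were prominent: eef1a1.S had 2 members at 11598.8 and 2874.6, eef2.1.L, which encodes the translocase, had 3 between 3140.5 and 3442.3, and eef1g.L had 2 at 4228.5 and 2935.6. The gene eef1a1o.S, whose synonyms in the gene table name it as the oocyte form of elongation factor 1 alpha, read 4729.5, and its copy eef1a1o.L read 755.8. The highest probe sets of eif5a.L, which encodes a factor that helps the ribosome through difficult stretches, read 10569.3 and 9558. Among initiation factors, 6 of 11 gene names of eIF3, the large complex on the small ribosomal subunit, were members. The highest eIF3 signals were eif3d.S at 8489.7, eif3a.L at 5685.4 and 5572.4, and eif3j.S at 4144.9. The highest eIF3 probe sets that were not members were eif3m.S at 2327.2 and eif3k.L at 2285.8, and the 21 eIF3 probe sets had a median of 1853. Other members were eif1b.L at 7173.5, the helicase cofactor gene eif4b.S at 6196.1, the termination factor gene etf1.S at 5787.8, the poly(A)-binding gene pabpc1.S at 3668.6 and the threonyl-tRNA synthetase gene tars1.L at 2878.1. The lowest was eef1b2.L at 2673.7. Other probe sets of pabpc1.S and eef1b2.L read only 10.6 and 103.2. The gene eif4a3.1.S, at 6523.6, carries an initiation factor's name, although its protein is part of the exon junction complex laid down by splicing.

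RNA-binding and splicing proteins had the most members, 60 probe sets of 55 genes, with 19.0% of the member signal and a lowest member, rbmx.S, at 2540.9. Of the SR proteins, which define exons, 6 of 9 measured gene names were members. After srsf2.L came srsf5.S at 5718.9 and 4683.6, srsf3.S at 4315.8 and srsf1.L at 4070.3, and the members srsf7.S and srsf6.L read 3763.2 and 3466.6. The other probe sets of srsf2.L and srsf1.L reached only 283.7 and 2471.7. The hnRNP family, which coats new transcripts, had 11 members from 6 of 14 measured gene names. The highest hnRNP signals were hnrnpa1.S at 5550.6, hnrnpu.S at 5235.4 and hnrnpa1.L at 4973.8. The Sm proteins, the ring of the spliceosomal snRNPs, were represented by snrpb.S at 7662.1, snrpb.L at 4797.2, snrpg.S at 4186.5 and snrpd1.L at 3342.8, while snrpd3.L read 553.7 and snrpf.S 1551. The cold-inducible RNA-binding genes cirbp.L and cirbp.S read 8878.2 and 8524.3, and khdrbs1.S, which encodes the signal-regulated RNA-binding protein Sam68, read 8815.8. The export helicase gene ddx39a.L read 6926.1.

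By patterns alone, 106 probe sets of the array fell in the chromatin class, with a median of 516.35. The class supplied 32 members with 13.4% of the member signal. Their median of 4748.8 is over probe sets chosen for brightness. High mobility group (HMG) proteins, which bend DNA or loosen nucleosomes, filled 9 of these places, and 9 of the 13 measured HMG probe sets were members. They were headed by hmgb3.S at 11159.2 and 9329.3, hmgn2.L at 9988.3, hmgn1.S at 9562.3 and hmgn2.S at 9246.4. The embryonic HMG gene hmga2.L, at 213.5, was the lowest of the 13. Replacement histones that are made outside S phase were also members: besides h2az1.L, h2az1.S read 6275.5 and h3-3b.S, a gene for H3.3, read 4073.4. Further histone H3 genes among the members included h3-5.L at 8749.5 and 6614.4 and h3c13.S at 5520.2. Histone chaperones and acidic nuclear proteins followed with npm1.L (nucleophosmin) at 6756 and 4800.4, nap1l1.L at 5615.8, anp32c.S at 4959.1 and set.S at 4117.5. The prothymosin-like gene ptmap12.L read 7225.8. The lowest chromatin member was the DNA damage sensor gene parp1.L at 2513.4.

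**Figure D3:**
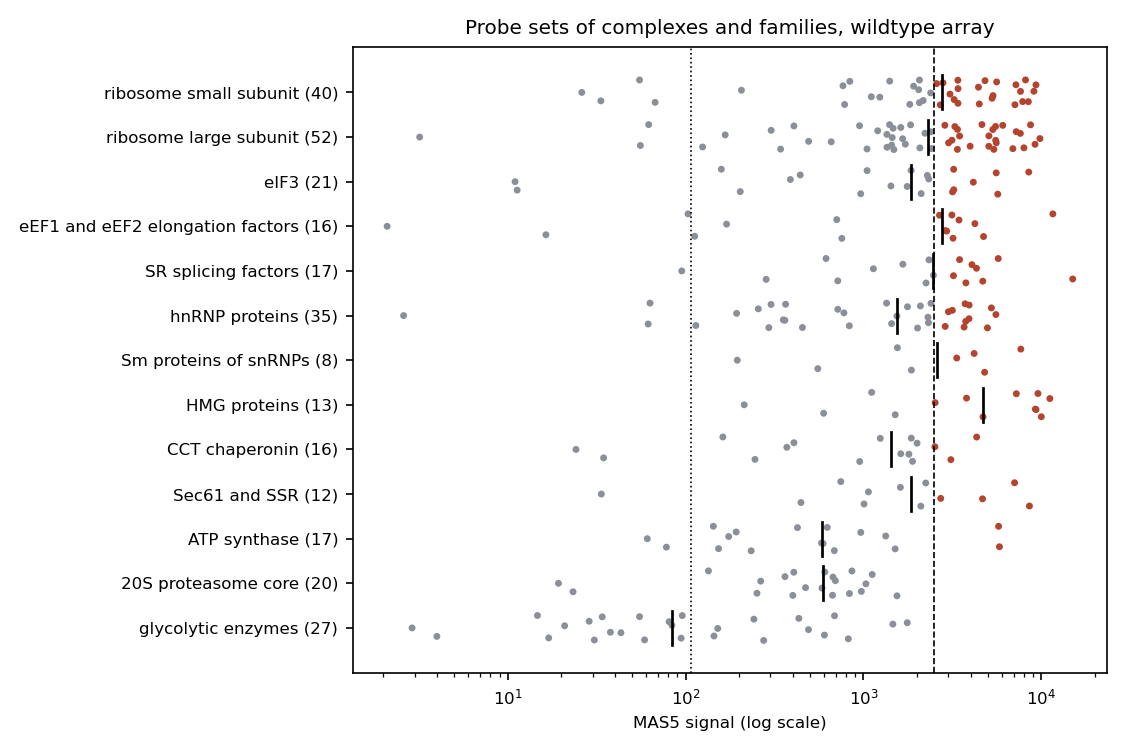
MAS5 signal (log scale) of every probe set with 1 symbol in the complexes and families named on the left, with the number of probe sets in brackets, members in red, other probe sets in grey and the median of each row as a bar. The dashed line marks the lowest member and the dotted line the array median. HMG proteins, elongation factors, Sm proteins and the small ribosomal subunit have their median above the dashed line. No probe set of the 20S proteasome core or of the glycolytic enzymes reaches it, which for rows of this size is near the 3.22% of all probe sets that were members. All rows except those of the ribosome are lists chosen after the values were seen.

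Protein folding and secretion genes followed, with 17 members each. By patterns alone, chaperones made up 5.33% of the members and 1.68% of the array. The secretory class made up 4.67% and 3.84%, so its share was near that of the array. Its highest member was tmem126a.L at 9838.5, whose name is uncertain as described above. The symbol pattern alone put this gene here, and a role in secretion was not checked. The chaperones held hspa8.L at 12073.2, the related hspa1l.S at 8166, the disulfide isomerase gene p4hb.L at 5174.4, the lectin chaperone gene canx.L at 4687.6 and 2765.4, and ppib.S, which encodes a prolyl isomerase of the endoplasmic reticulum, at 4601.3. The lowest was cct2.S at 2520.7. The CCT chaperonin, which folds actin and tubulin, had 3 member gene names of 9, with cct5b and cct5 counted as separate names. The probe sets of cct5b at 4325.9 and cct5.S at 3097.8 stood above cct2.S. In the secretory class, the channel that threads new proteins into the endoplasmic reticulum had all 3 of its measured Sec61 genes among the members. Each had 1 member probe set, sec61g.L at 7067.8, sec61b.L at 4668.1 and sec61a1.S at 2716.4. A further probe set of sec61g.L read 1007.2 and was not a member. Beside the Sec61 genes, ssr2.S, a gene of the signal sequence receptor, read 8566, and ssr4.S, ssr1.S and ssr3.L read 2237.9, 1065.8 and 745.7. The probe set named for the lysosomal protease gene ctsv.L read 6425.1, the small GTPase gene rhoa.L 5783.4 and the tetraspanin gene cd63.L 4492.5. The name ctsv.L is uncertain. Its probe set is of a kind that can read more than 1 transcript, and its ID shares a cluster number with the members of the alpha-tubulin gene tuba5.S. The lowest secretory member was flot2.L at 2530. Of 135 probe sets in the proteasome and ubiquitin class, 1 was a member, or 0.741%, beside 3.22% of all probe sets. It was the ubiquitin-conjugating enzyme gene ube2l3.S at 2521.3. The 20 probe sets of the 20S proteasome core had a median of 595.25 and went no higher than psma6.S at 1542.6. In a list this short, no member is near the overall share, and 14 of the 20 exceeded the array's upper quartile of 387.8.

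Cytoskeletal genes gave 15 members, none of them among the 50 highest. By patterns alone the class made up 4.67% of the members and 1.56% of the array. The cytoplasmic actin gene actb.L had 2 members at 6158 and 5757.4 and a further probe set at 248.8. The control named bAct, which has other probe sets, read no higher than 1399.3. The alpha-tubulin gene tuba5.S had 3 members at 5294.7, 4479.3 and 3709, and the beta-tubulins followed with tubb4b.L at 3434.1, tubb4a.S at 3387.5 and 3056.7, and tubb.L at 2524.6, the lowest of the class. The calponin gene cnn3.L read 4068.9. The 14-3-3 adaptor genes ywhab.S and ywhaq.S, at 5644.2 and 2921.5, were placed here by their symbol pattern, although they bind phosphorylated proteins of many pathways.

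Skeletal muscle genes had few named members, at a share near that of the whole array. The muscle class had 3 members of 117 probe sets on the array, or 2.56%, beside 3.22% of all probe sets. Only myl1.L, a myosin light chain gene of fast muscle, at 3949.9, is particular to striated muscle by its known role. Further probe sets of myl1.L read 1986.7 and 226.5. The other muscle class members were myl12b.L at 5060.6, the gene of a light chain of non-muscle myosin, and atp2a2.S at 2703.8, a calcium pump gene that many tissues use. The class had an array median of 45.2, but many markers of muscle stood higher. In a list of 19 muscle markers, 15 were named by at least 1 probe set, and 18 of their 26 probe sets exceeded 107.4, with a median of 278.95. Beside myl1, the highest were the fast light chain gene mylpf.L at 2386.3, the troponin gene tnnc2.S at 1687, the muscle calcium pump gene atp2a1.S at 1515.5 and myf5.L, a myogenic transcription factor gene, at 1342. The myogenic factor gene myod1.S read 775.1 and its copy myod1.L 376.7. At the low end were casq1.S at 18.5 and acta1.S at 5.2. The muscle markers actc1, des, myh4 and ttn had no probe set with a single symbol and were not analysed here. Control probe sets for actin, which the choice of members left out, read high: the one named a1Act gave 7856.8 at its 3′ end, 9502.8 in the middle and 120.4 at its 5′ end, and a3Act gave 4852.3, 266.9 and 23.5. The control named bAct gave 494.7, 1399.3 and 104.4 in the same order, with its middle above its 3′ end. The 3′ end read 65.3 and 206.5 times the 5′ end in a1Act and a3Act, 4.74 times in bAct and 32.3 times in Gapd. Where in its transcript a probe set lies therefore moved with its signal in these controls, and its part in the order of the members was not tested.

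Epidermal genes, 4% of the members and 1.32% of the array, supplied 12 members of 9 genes, with 4.54% of the member signal. Keratins, the intermediate filaments of epithelia, made up 6 of them: krt70.S had 3 members at 13889.6, 6959.3 and 5512, krt8.1.S had 2 at 4329.6 and 4115.2, and krt7.L had 1 at 3377.2. The highest after the top krt70.S probe set was itln1.L, which encodes the secreted lectin that embryonic skin releases, at 8244.9. The protease inhibitor gene spint2.L read 5242.3. Tight junction genes were also members, with cldn6.2.L at 3680.1, cldn4.L at 3042.2 and cldn6.2.S at 2834.7. The uroplakin gene upk3a.L, for a protein of apical membranes, was the lowest of the class at 2820. Without the _a_at, _s_at and _x_at probe sets, which can read more than 1 transcript, the class made up 7 of the 300 highest, or 2.33%. Of the epidermal marker list, 13 of 18 markers were named, 15 of 21 probe sets exceeded the array median and 5 were members. The rest were uneven: krt12.5.S read 2435.1 and epcam.S 1601.2, while the junction genes cdh1.S and dsp.L read 52 and 36.8 and the epidermal factor gene tp63.L 1.9. The keratin krt70.S itself had a further probe set at 43.4, and its copy krt70.L read 1470.7. Keratins such as krt8 and krt7 are also made by simple epithelia, so they are not particular to skin.

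Genes of patterning and signalling were also among the members. Of these genes, post, xmc and sp5l are in a list of posterior genes that was chosen after the values were seen. The class had 15 members of 12 genes, 12 of the 15 placed by hand, and the patterns alone put 3 of 435 probe sets among the members. The rest of the array was not placed by hand, so the share of this class could not be compared between members and array. The highest was post.L, listed in the gene table under the synonym xpo and known for expression in the posterior of Xenopus embryos, at 7485.6 and 5927.9. Both post.L probe sets are of kinds that can read more than 1 transcript. The gene xmc.L, for a coiled-coil protein needed for mesoderm movements in Xenopus, read 4812.8 and 3751.2. The zinc finger factor gene sp5l.S, which acts downstream of FGF in Xenopus mesoderm, read 4335 and 4329, with a further probe set at 941.7. Other members were zbtb33.S (the repressor Kaiso) at 5610.6, the maternally supplied nuclear factor gene xnf7.S at 5127.6, the antiproliferative gene btg1.L at 3834.6 and gpc4.L, which encodes a cell surface proteoglycan that binds Wnt and FGF ligands, at 3490.9. Lower members were the retinoic acid receptor gene rarg.S at 2921.6, nradd.L at 2891.5, lmo2.S at 2797.7, tcf3.L at 2562.6 and znf238.2.L at 2503.8.

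Genes with known regional expression were set beside the labelled site of dissection. Both regional lists, posterior and head, were chosen after the values were seen. The posterior list holds 6 member probe sets, those of post, xmc and sp5l, so the contrast between the lists is no independent check of the site. In a list of posterior and tail bud genes, 21 of 22 were named, with a median of 530.3 over 31 probe sets, 22 of them above 107.4. Just under the members were hoxa7.L, a trunk Hox gene, at 2337.3, and tbx6.L, a T-box gene of presomitic mesoderm, at 2294.1. Further down stood msgn1.L at 1149.5, the caudal gene cdx1.S at 1115.4, the T-box gene tbxt.S of tail bud and notochord at 1039 and hoxc8.S at 870.6. Other Hox genes read lower, whatever their place along the axis: hoxd9 had probe sets at 231.6 and 33.7, hoxb7.L at 221 and 40.9, and hoxb7.S 1 at 81.1. The more posterior genes hoxd10.L, hoxc10.L and hoxd13.S read 96.7, 65.9 and 47.2, and hoxb9 read 48.6. In a list of head and anterior neural genes, 24 probe sets had a median of 6.9 and 2 of them exceeded the array median. The forebrain and eye genes otx2.S, six3.S and rax.S went no higher than 16.5, 21.7 and 7.5, and the midbrain gene en2.S read 4.4. The exceptions were ag1.L, a cement gland gene of the head, at 602.3 and ag1.S at 109.5.

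**Figure D4:**
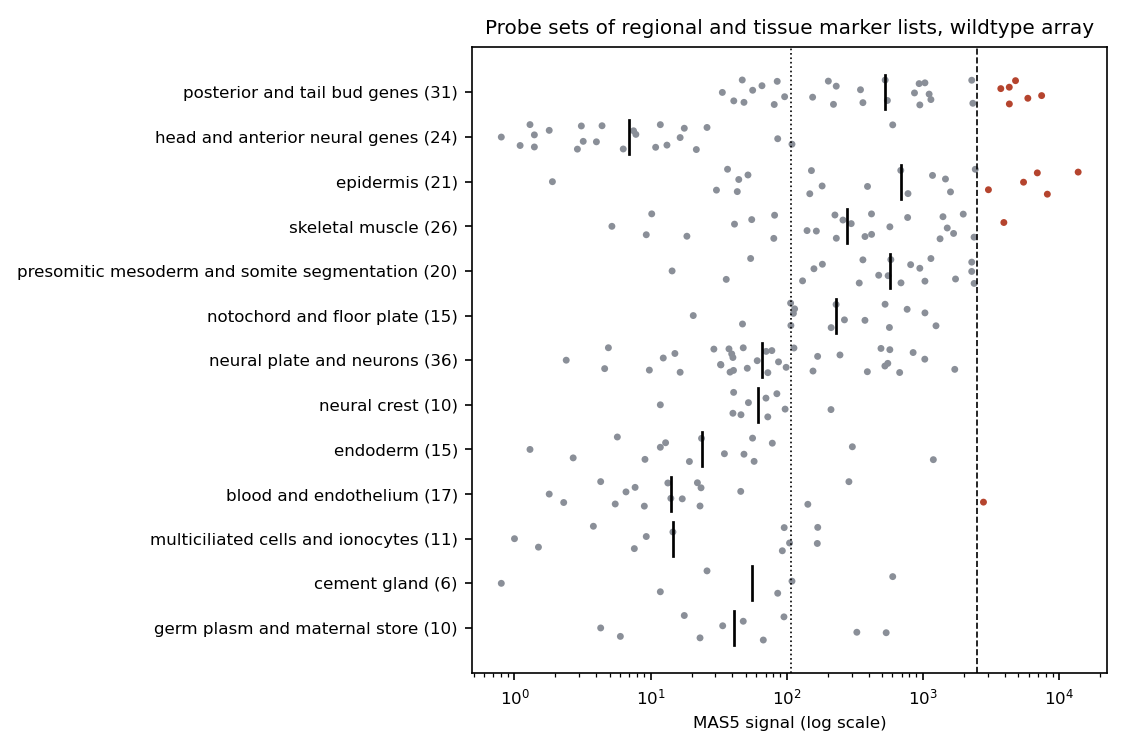
MAS5 signal (log scale) of every probe set with 1 symbol in the regional and tissue lists named on the left, with the number of probe sets in brackets, members in red, other probe sets in grey and the median of each row as a bar. The dashed line marks the lowest member and the dotted line the array median of 107.4. The posterior list has a median of 530.3 and the head list of 6.9, and both were chosen after the values were seen. Members occur in the posterior, epidermis, muscle and blood lists.

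Paraxial mesoderm markers were mostly above the array median without reaching the members. In a list of 20 probe sets, no member is near the 3.22% over all probe sets. Of the list for presomitic mesoderm and segmentation, 17 of 20 genes were named, 17 of 20 probe sets exceeded the array median, and their median was 570.4. The highest were the protocadherin gene pcdh8.2.L, a cell adhesion gene of segmenting mesoderm, at 2388.5, tbx6.L at 2294.1, the Notch ligand gene dll1.L at 2293 and the segment border gene mespa.S at 1743.6. At the low end, uncx.L read 14.4, and fgf8.L read 692.8, 54.4 and 36 with different probe sets. The median of the notochord and floor plate list was 231 over 15 probe sets, led by the BMP antagonist gene chrd.1.S at 1252.7 and followed by the T-box gene tbxt.S at 1039, with col9a2.L at 529.3. The collagen gene col2a1.S of notochord and cartilage read 107.5. Neural genes had a median of 65.75 over 36 probe sets, with sox11.S at 1721.1, snap25.L at 1036.3 and sox2.L at 573.6 at the upper end. A further probe set of sox2.L read 40.7. None of the 36 was a member, which in a list of this size is also near the share over all probe sets. The lists with medians under the array median also included neural crest at 61.45, cement gland at 56, germ plasm and maternal store at 40.95, endoderm at 23.7, multiciliated cells and ionocytes at 14.6, and blood and endothelium at 14.1. The endoderm list held the protease inhibitor gene a2m.S at 1197.7 as its brightest, followed by foxa1.S at 304.2. The 1 member of the blood list, lmo2.S, which encodes a LIM-only adaptor of blood and vessel progenitors, stood apart from its list, in which the next highest was spib.S at 287 and gata1.L and tal1.S read 23.1 and 22.1. In dissected tissue, a low signal from few expressing cells and a low level in each cell cannot be told apart.

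Matrix genes had 3 members. The fibronectin gene fn1.S, for the fibrils that migrating mesoderm crawls on, read 6887 and 4964.9, and the hyaluronan synthase gene has1.S read 2701.7. The class had 124 probe sets on the array, with a median of 22.5. Of them 2.42% were members, near the 3.22% of all probe sets.

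Genes of energy metabolism were members at shares near those of the array. By patterns alone, the mitochondrial class made up 1.67% of the members and 1.24% of the array, and the carbon class 1% and 0.785%. Mitochondrial genes gave 6 members of 6 genes. After slc25a5.L came the ATP synthase genes atp5f1b.S at 5811.6 and atp5mc3.S at 5747.3, the complex III gene uqcrq.S at 3133.5, slc25a17.L at 2875.9, a carrier that in other species sits in the peroxisome, and the uncoupling protein gene ucp2.L at 2747.2. The 15 other ATP synthase probe sets did not reach the members, and the highest of them was atp5f1a.L at 1506.7. No enzyme of glycolysis was a member, which in a list of 27 probe sets is near the 3.22% over all probe sets. The 27 glycolytic probe sets had a median of 83.8, with aldoa.S at 1762.2 the highest and gapdh.L at 80.8. The control named Gapd, which is no member and has other probe sets, read 1178 at its 3′ end, 343.5 in the middle and 36.5 at its 5′ end. The 3 members of the carbon class were 2 probe sets of the malate dehydrogenase gene mdh1.S at 3874.8 and 3438 and the isocitrate dehydrogenase gene idh2.S at 2701.7.

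Nitrogen, creatine and methyl metabolism had 7 members, all placed by hand. The rest of the array was not placed by hand, so this class has no share of the array to compare. The glutamine synthetase gene glul.S read 7870.1. Both steps of creatine synthesis were present, with gatm.L at 6167.9 and gamt.S, the gene of the methyltransferase that completes it, at 3634.1. The gene for S-adenosylmethionine synthetase, mat2a.L, which makes the methyl donor for that step, read 3948.9. The arginine methyltransferase genes prmt1.S and prmt1.L read 7674.6 and 4750.4, and ogt.L, for the enzyme that adds N-acetylglucosamine to proteins, read 2664.9. The nucleotide and cell cycle class had 9 members, and by patterns alone it made up 2.33% of the members and 1.63% of the array. Polyamine synthesis was visible in odc1.L, its rate-limiting enzyme, at 6729.8, 3788.6 and 3066.3, together with oaz1.S, the antizyme that restrains it, at 4550.9. Purine supply was represented by impdh2.L at 4850.7, pnp.L at 3636.8 and paics.1.L at 3462.6, and the cycle itself by cdk4.S at 3438.5. Iron handling appeared in the ferritin gene ftmt.S at 4427.3 and the heme oxygenase gene hmox1.L at 3688.7.

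The remaining members were spread thinly. The ribosome assembly, kinase and transcription classes were placed by hand alone and have no share of the array to compare either. Ribosome assembly factors had 7, headed by llphp3.S at 5453.3 and nifk.S at 4141. Kinases and signal relay genes had 4, with the casein kinase subunit gene csnk2b.S at 4862.7 and the phospholipase gene plcb3.L at 4051.5 the highest and csnk1a1.L at 2620.5 the lowest. The RNA polymerase II subunit gene polr2e.S read 3449.7 and the TFIID gene taf13.S 2745.2. The 7 unplaced members ran from 2518.8 to 3727.1 and included atp1b3.S, for a subunit of the sodium pump, at 3727.1, and the DNA repair gene apex1.L at 2905.8.

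Xenopus laevis is allotetraploid, and many genes survive as a copy on the long (.L) and a copy on the short (.S) subgenome. Of the member genes with a suffix, 51.2% were .L, against 59.3% of such genes on the array. Of 232 member gene names with a suffix, 74 had both copies named by probe sets with a single symbol, and in 22 of these both copies were members. Among the 22, the brightest probe sets of the copies differed by a median of 0.55 on the log2 scale. The closest were cirbp at 8878.2 for .L and 8524.3 for .S, hmgn2 at 9988.3 and 9246.4, and srsf6 at 3466.6 and 3204.3. The widest were h2az1 at 20079.9 and 6275.5, a 3.20-fold difference, and rbm8a, for another exon junction protein, at 6150.6 and 2928.7. In the other 52 pairs the median difference was 2.43 on the log2 scale, 14 were more than 10-fold apart, and in 11 the copy that was not a member lay under the array median. Examples are hmox1 at 3688.7 for .L and 2.2 for .S, the tubulin tuba1c at 4.9 and 2857.6, and the nucleoside diphosphate kinase nme2 at 19.7 and 3178.5. Since the pairs were divided by whether both copies passed the signal that chose the members, a smaller difference in the 22 than in the 52 follows from the choice. Copies are read by different probe sets, and near-identical copies can share signal, so these differences carry the spread between probe sets described above. The suffix went against the subgenome of the chromosome in the gene table for 3 member genes, h3-5.L, xmc.L and uqcrq.S.

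**Figure D5:**
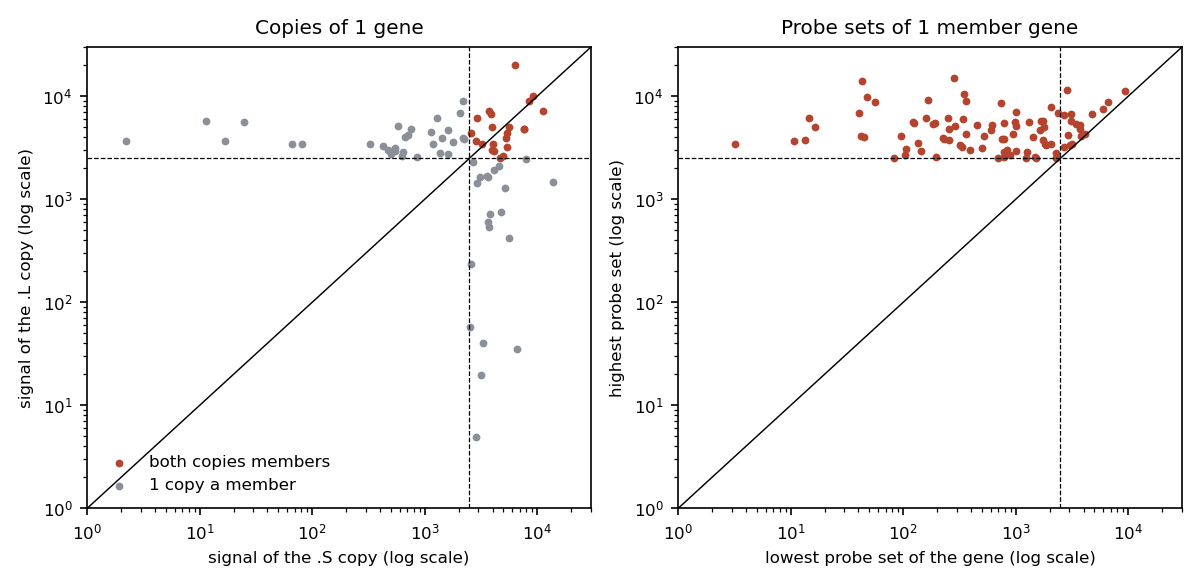
Left, the brightest probe set of the .L copy against that of the .S copy (MAS5 signal, log scales) for the 74 pairs, with the 22 pairs in which both are members in red. Right, the highest against the lowest probe set of each of the 92 member genes with more than 1 probe set; the solid line marks equal signal and dashed lines the lowest member, and the median gene lies 5.95-fold above the line.

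The members also differed from the array in the kind of probe set. Suffixes that mark probe sets able to read more than 1 transcript (_a_at, _s_at or _x_at) were carried by 80 members, or 26.7%, against 877 of the 9304, or 9.43%. Without such probe sets, ribosomal proteins, RNA-binding proteins, chromatin genes and translation factors were still the 4 classes with the most members.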

How the data were processed

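Total RNA was extracted with Trizol, labelled with biotin and hybridised to an Affymetrix array, per the labels' protocols. The deposited values were probe set intensity on a linear scale, which the authors made by the MAS5 method according to the submitters' processing notes. No source used here gives its version or scaling, and detection calls were not used.

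Only the array labelled wildtype was used. Of 15611 probe sets, 120 controls were set aside. The platform annotation gave 1 symbol to 9304, several to 195 and none to 5992. The 300 highest were taken, with no floor, filter or further normalization. By Entrez ID, 298 of the 300 matched a RefSeq gene table for assembly Xenopus_laevis_v10.1, used for names and subgenomes only, and 0 symbols changed.

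The members, classes and lists were chosen with earlier results of these data known. Genes to name were the 20 highest, the highest 5 and the lowest of a class, list members and markers, pairs of copies and genes with several probe sets. The lists of complexes, posterior and head genes, the placing by hand, and some further members named under their class were chosen after the values were seen. S6 kinases, which the ribosomal protein pattern took in at first, were removed from it. Protein and promoter features were planned but not analysed here, since no sequences were at hand. Depth does not apply to arrays, and their number, 1, limits the precision. The selection was tested on simulated data. Alternatives are given in the closing section. Python 3.11.15, numpy 2.4.6, pandas 2.3.3, scipy 1.17.1 and matplotlib 3.10.9 were used.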

Additional observations from a re-analysis of the deposited data

How the results depend on the processing

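No paired analysis was possible because 1 array was used, and no replicate could be left out. The members' share of the summed signal, 35.7%, was 38.6% with the brightest probe set of each gene, 37.6% with the median over a gene's probe sets, 42.6% with the copies of a gene summed, 35.3% with several-symbol probe sets kept, 35.8% without the _a_at, _s_at and _x_at probe sets, 26.4% of all frog probe sets, and 18.4% and 50.1% for the 100 and 600 highest. Class shares and the share of pairs with both copies as members were recomputed 133 times over 10 alternatives. Of these values, 10 lay outside the 95% Wilson interval of the value reported. That interval treats members as independent draws, but they are the fixed top of 1 array, and 33 genes supply more than 1. It served only as a yardstick for the size of a change and measures no error. The 10 values were as follows. With the 100 highest, ribosomal proteins made up 26%, chaperones 3%, the carbon class and the proteasome class 0%, and both copies were members in 20% of pairs. With the 600 highest, ribosomal proteins made up 10.5%. Without the placing by hand, RNA-binding proteins made up 15% and patterning genes 1%. The muscle class came to 0.333% with the median over a gene's probe sets, and also with genes moved to the class of their known role, an alternative chosen after seeing the data. Inside its interval, this share of 1% also came to 1.67% with the brightest probe set of each gene or without the _a_at, _s_at and _x_at probe sets, 2% with copies summed and 2.17% with the 600 highest. The proteasome class, 0.333% as reported, came to 1.67% with copies summed. The 100 and 600 highest change the number of members by construction.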

Other observations

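The brightest part of the array also holds transcripts without a single name. Of 392 frog probe sets at or above the lowest member, 60 had no symbol and 32 had several, and 16 of the 100 brightest had no symbol. Of the 32, 26 name both copies of 1 gene. By their first symbol, 11 are ribosomal proteins, 5 chromatin proteins, 4 RNA-binding proteins, 4 translation factors and 1 a muscle gene.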
